A study of Homo sapiens with 44 samples.

Results

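The 10 genes followed here belong to the contractile apparatus and energy supply of skeletal muscle, and were measured in RNA-seq libraries of A549, a human lung adenocarcinoma cell line, and of xenograft tumours grown from it. The members were ACTA1, CKM, MYH1, MYH2, MYH4, TTN, NEB, TNNT3, MYLPF and DES, 10 of the 58721 genes in the 3 deposited count tables. They were chosen by name from their levels in these same libraries, so their levels and the differences between groups are given as a description, with no test.

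The study compared the parental line (WT) with 3 edited A549 lines called het1, het2 and homo, in which p300, an acetyltransferase that serves as a transcriptional coactivator, has a truncated TAZ2 domain. Cells in culture gave 3 libraries per line (12 in all), and xenograft tumours of the 4 lines taken at day 30 gave 4 per line (16 in all). WT and het1 tumours given DMSO, the vehicle, or SAHA, an inhibitor of histone deacetylases, for 4 weeks gave 4 libraries per group (16 in all). The labels name neither the host animal nor the site of the graft, and nothing in them says that replicate libraries stem from different animals or cultures; the p-values thus reflect library-to-library spread, which may be technical. Whether each edited line is a single clone is not stated there. Replicate numbers below are those of the labels.

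Library totals ran between 61168373 and 93444327 counts for cells, 63243289 and 99593214 for tumours of day 30, and 61937591 and 82475298 for treated ones. EP300, which encodes p300, was at 103 to 205 CPM (counts divided by the library total and multiplied by 1000000) in cells, 82.4 to 144 in day 30 tumours and 80.2 to 140.5 in treated tumours. Its level does not test a truncation. The epithelial genes fixed for A549 (KRT8, KRT18, KRT7, CDH1, EPCAM and CLDN4) summed to 873 to 6206 CPM in the 12 culture libraries and to 3469 to 6866 CPM in the 32 tumour libraries.

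Skeletal muscle fibres contract when myosin heads of the thick filament pull on actin of the thin filament, after calcium has moved troponin away from the binding sites. Fibre types differ in their myosin heavy chain: MYH7 is the slow form, and MYH2, MYH1 and MYH4 are the fast forms IIa, IIx and IIb. MYH4 is abundant in fast muscles of the mouse and is hardly made in human limb muscle. MYLPF is a regulatory light chain of fast myosin, ACTA1 is the skeletal alpha-actin, TNNT3 is the tropomyosin-binding subunit of fast troponin, and nebulin (NEB) lies along the thin filament. Titin (TTN) spans each sarcomere from Z disc to M band, the creatine kinase CKM buffers ATP, and desmin (DES), an intermediate filament protein, links neighbouring myofibrils and is also made by smooth and cardiac muscle.

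MYH1, MYH2 and MYH4 stand next to each other on the minus strand of chromosome 17. In GENCODE release 29 on GRCh38, MYH4 (ENSG00000264424) lies at 10443290 to 10469559, MYH1 (ENSG00000109061) at 10492307 to 10518543 and MYH2 (ENSG00000125414) at 10521148 to 10549957. MYH13 and MYH8 lie on one side of the 3 genes and MYH3 on the other. Over the aligned coding bases MYH1 was 91.1% identical to MYH2 and 89.7% identical to MYH4. The stretch below, bases 2962 to 3045 of the MYH1 coding sequence, is shown because all 3 genes hold it unchanged, so a short read from it has no unique origin among them.
MYH1/MYH2/MYH4: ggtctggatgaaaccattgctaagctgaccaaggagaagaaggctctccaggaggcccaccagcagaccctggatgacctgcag

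Of all 50-base windows of the coding sequence, 21.6% in MYH1, 18.6% in MYH2 and 14.1% in MYH4 also occurred in another gene, against 2.50% in ACTA1 and 0% in CKM, TTN, NEB, TNNT3, MYLPF and DES. How the counting treated reads that match several genes is not stated in the sources used here, and the split among the fast myosins carries that uncertainty. These are the human sequences; those of a host species were not used here.

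Promoters were looked at because most of the members moved together. RefSeq (GRCh38.p14) held the 250 bases before the start for 7 of the 10 members. The following are those of ACTA1 and the 3 fast myosins, all read on the minus strand, with capitals for a CArG box, the site of serum response factor, a MEF2 site and a TATA box (TATAAAA or TATAATA), each searched on both strands.
ACTA1, chr1:229434095-229434344: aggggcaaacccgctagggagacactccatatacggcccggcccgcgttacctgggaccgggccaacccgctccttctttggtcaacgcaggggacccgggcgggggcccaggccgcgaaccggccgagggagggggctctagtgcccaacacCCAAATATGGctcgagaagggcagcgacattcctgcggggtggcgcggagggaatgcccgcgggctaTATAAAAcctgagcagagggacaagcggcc
MYH1, chr17:10518543-10518792: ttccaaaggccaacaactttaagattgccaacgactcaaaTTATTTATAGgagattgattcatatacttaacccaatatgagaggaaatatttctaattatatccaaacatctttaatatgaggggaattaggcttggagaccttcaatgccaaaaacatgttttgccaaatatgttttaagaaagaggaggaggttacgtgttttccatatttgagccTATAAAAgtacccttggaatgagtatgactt
MYH2, chr17:10549659-10549908: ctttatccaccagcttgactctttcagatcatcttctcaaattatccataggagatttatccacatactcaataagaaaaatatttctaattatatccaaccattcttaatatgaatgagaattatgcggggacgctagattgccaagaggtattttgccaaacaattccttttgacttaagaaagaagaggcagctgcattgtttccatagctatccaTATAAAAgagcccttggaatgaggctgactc
MYH4, chr17:10469560-10469809: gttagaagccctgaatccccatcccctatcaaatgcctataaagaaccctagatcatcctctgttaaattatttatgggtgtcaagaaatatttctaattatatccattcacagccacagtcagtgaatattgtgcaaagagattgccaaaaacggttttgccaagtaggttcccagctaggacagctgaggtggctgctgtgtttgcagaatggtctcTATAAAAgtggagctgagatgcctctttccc

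These 4 promoters each had a TATA box, starting 30 bases before the start in ACTA1 and 31 bases before it in the myosins, where 5.76% of 35116 promoters of this length held one. The promoters of CKM, TTN and NEB, the rest of the 7, had no match to this pattern. The CArG box of ACTA1 began 97 bases before the start and occurred in 1.16% of all promoters, and the MEF2 site of MYH1 began 210 bases before it and occurred in 1.75%. TTN also held a MEF2 site, and an E-box (CANNTG, not capitalised) stood in 5 of the 7 members and in 61.8% of all promoters. A match of letters is a description, not a bound site.

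In culture the fast myosins were near 0. MYH1 had 0 counts in the 12 libraries together, MYH2 had 3 and MYH4 had 1, while CKM had 44, MYLPF 39, DES 27 and TNNT3 20 of 904559453 counts. ACTA1 was the exception among these genes, at 0.474 to 1.10 CPM. Summed over the 8 members other than TTN and NEB, a subset chosen after its values were seen, the culture libraries held 0.542 to 1.20 CPM.

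In tumours the same 8 genes reached far higher levels in some libraries and lay close to the level of culture in others (heatmap of the members by library). Their sum was 1.04 to 55.1 CPM over the 16 day 30 tumours (median 4.54), and 1.31 to 200.03 CPM over the 16 treated tumours (median 15.7). Of the 32 tumour libraries, 31 lay above the highest culture library. In bulk libraries, fewer cells of a type and less RNA per cell cannot be told apart.

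**Figure D1:**
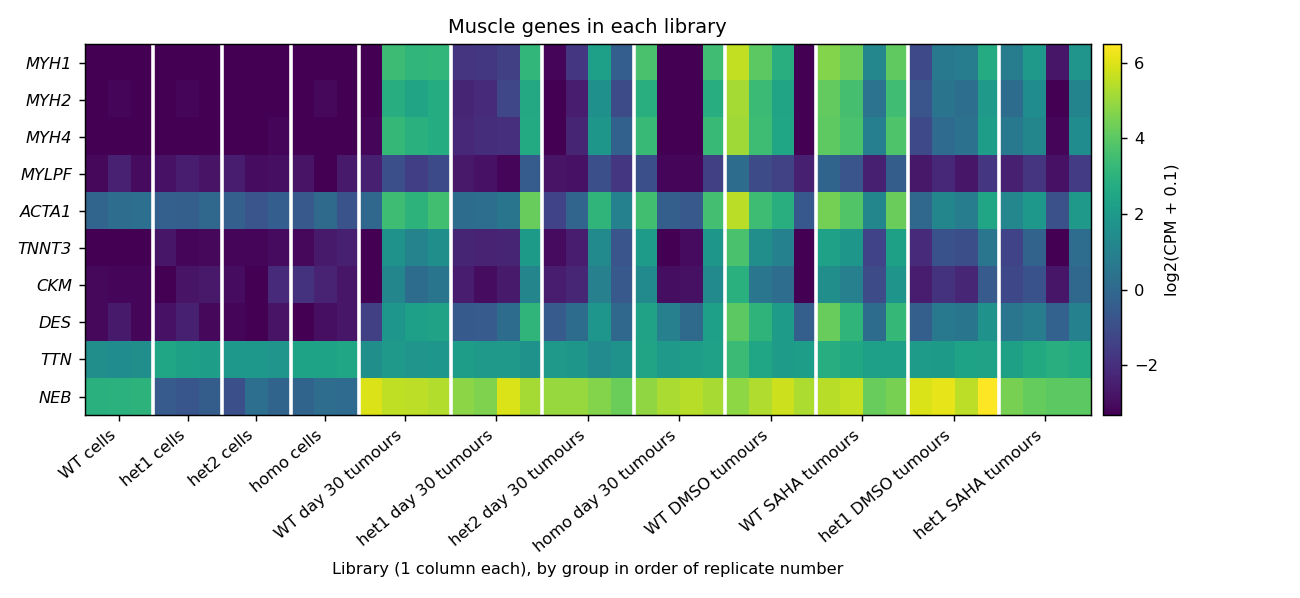
Level of each muscle gene (rows) in each library (columns, by group), as log2(CPM + 0.1). MYH1, MYH2, MYH4, MYLPF, ACTA1, TNNT3, CKM and DES are bright or dark in the same tumour libraries, while TTN is even and NEB is bright in all 32 tumour libraries.

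MYH1 shows how uneven the libraries of a group were. At day 30 it stood at 0, 10.6, 8.64 and 8.86 CPM in WT replicates 0, 1, 2 and 4, and at 0.175, 0.198, 0.262 and 9.01 CPM in het1 replicates 1 to 4. It stood at 0.0111, 0.191, 4.57 and 0.671 CPM in het2 replicates 0, 1, 3 and 4, and at 12.9, 0, 0 and 11.0 CPM in homo replicates 0, 1, 4 and 5. Each line had at least 1 library far above culture and at least 1 close to it, so the 4 groups overlapped.

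Treated tumours gave a similar scatter at a higher ceiling. Under DMSO, MYH1 was at 48.9, 16.1, 7.11 and 0 CPM in WT replicates 2, 3, 7 and 8, and at 0.351, 1.47, 1.67 and 6.47 CPM in het1 replicates 2 to 5. Under SAHA it was at 25.4, 19.2, 2.21 and 17.2 CPM in WT replicates 3, 4, 6 and 8, and at 1.63, 3.85, 0.051 and 3.41 CPM in het1 replicates 1, 2, 3 and 6. The WT groups held the high libraries and also, under DMSO, the lowest one.

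MYH2 and MYH4 were high in the libraries that were high in MYH1. MYH2 ran from 0 to 7.15 CPM at day 30 (median 0.36) and from 0 to 35.7 CPM in treated tumours (median 2.36). MYH4 ran from 0 to 9.85 CPM (median 0.44) and from 0 to 33.9 CPM (median 2.42). Homo day 30 replicates 1 and 4 and WT DMSO replicate 8 had 0 counts of all 3 fast myosins, and WT DMSO replicate 2 had 3693 counts of MYH1, 2695 of MYH2 and 2561 of MYH4.

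The proportions of the fast myosins were far steadier than their amount. In the 21 tumour libraries with at least 100 fast myosin counts, these counts spanned 63.5-fold (141 to 8949). MYH1 made up 37.6% to 44.2% of them (median 41.5%), MYH2 22.0% to 34.1% (median 26.4%) and MYH4 25.1% to 40.4% (median 30.3%). MYH7, the slow form, had 0.786 to 6.37 counts per 100 fast myosin counts, with a median of 2.03. Read against MYH7, whose exons have a similar total length, the fast forms were higher: mean levels over the 32 tumours were 1.15 CPM per kb of exon for MYH1, 0.842 for MYH4, 0.707 for MYH2 and 0.082 for MYH7.

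**Figure D2:**
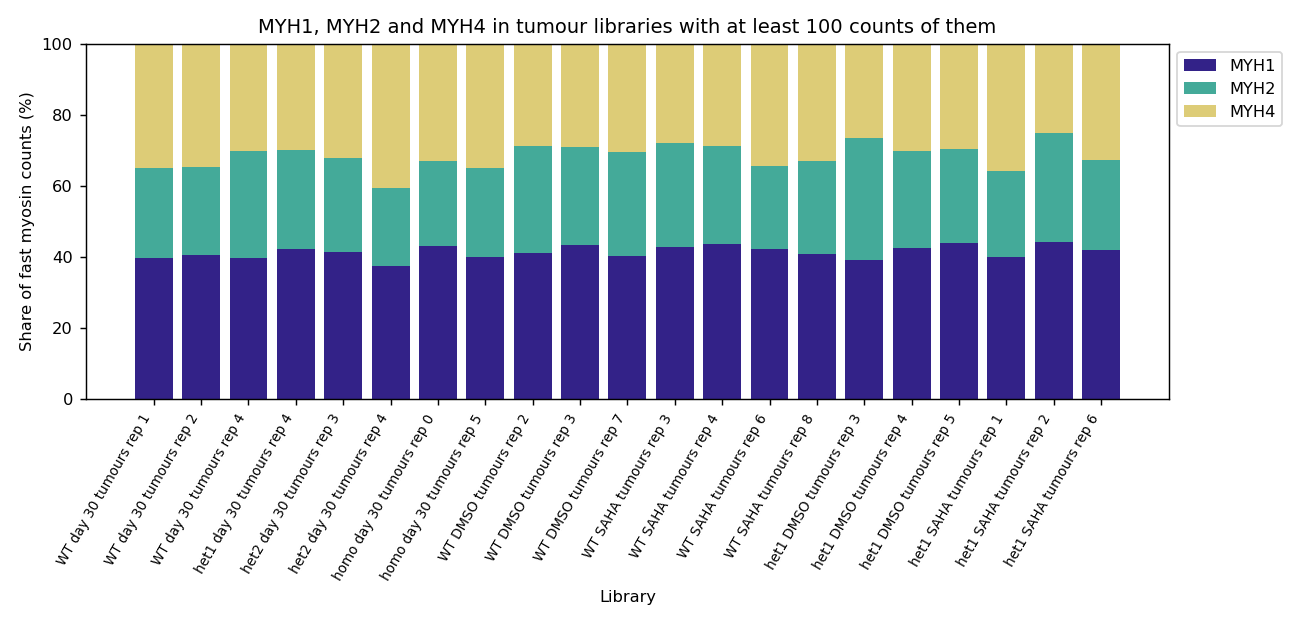
Share of MYH1, MYH2 and MYH4 (percent of their summed counts, stacked to 100) in each of the 21 tumour libraries with at least 100 such counts. MYH1 stays between 37.6% and 44.2% across lines and treatments.

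MYLPF, the light chain, had the fewest counts of the members in tumours (616), and stood at 0.0118 to 0.628 CPM at day 30 and 0.0383 to 1.01 CPM in treated tumours. Culture libraries held 0 to 0.0886 CPM, so the low tumour libraries lay within the range of culture.

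Of the thin filament genes, ACTA1 (ENSG00000143632, chromosome 1, 229431245 to 229434098) repeated the myosin pattern on top of a low level in culture. At day 30 it was at 0.871, 10.8, 8.09 and 11.5 CPM in WT replicates 0, 1, 2 and 4, and at 1.01, 1.06, 1.32 and 18.6 CPM in het1 replicates 1 to 4. In het2 replicates 0, 1, 3 and 4 it was at 0.289, 0.823, 8.43 and 1.89 CPM, and in homo replicates 0, 1, 4 and 5 at 11.3, 0.685, 0.568 and 11.6 CPM. The libraries high in MYH1 were those high in ACTA1.

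Under DMSO, ACTA1 was at 44.3, 10.8, 6.98 and 0.549 CPM in WT replicates 2, 3, 7 and 8, and at 0.90, 2.16, 1.68 and 5.43 CPM in het1 replicates 2 to 5. Under SAHA it was at 21.4, 14.2, 2.16 and 18.9 CPM in WT replicates 3, 4, 6 and 8, and at 2.25, 3.64, 0.434 and 3.79 CPM in het1 replicates 1, 2, 3 and 6. The het1 libraries lay within the WT range under DMSO, and under SAHA 1 of them lay below it.

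TNNT3 (ENSG00000130595, chromosome 11, 1919562 to 1938706) ran from 0 to 4.06 CPM at day 30 and from 0 to 12.6 CPM in treated tumours, against at most 0.0817 CPM in culture. CKM (ENSG00000104879, chromosome 19, 45306414 to 45322977) ran from 0 to 2.44 and from 0 to 7.36 CPM, against at most 0.173 CPM in culture. DES (ENSG00000175084, chromosome 2, 219418377 to 219426739) ran from 0.263 to 8.56 and from 0.675 to 18.5 CPM, against at most 0.0831 CPM in culture. DES differed from the other 2 genes in that its lowest tumour library still exceeded every culture library.

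Pooled over libraries, the tumours to culture ratio of CPM was 125 for DES, 81.5 for TNNT3, 22.3 for CKM, 9.29 for ACTA1 and 5.79 for MYLPF. MYH1, with 0 counts in culture, was at least 2056-fold higher, from a floor of 3 counts over the culture libraries. MYH4 with 1 culture count gave a ratio of 4507 with a 95% interval of 809 to 178036, and MYH2 with 3 gave 1375 (470.2 to 6666). These intervals cover counting error only, and the culture and tumour libraries were also counted in separate tables, so table and growth condition cannot be told apart.

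Over the 32 tumour libraries, the 28 pairs among the 8 genes had Pearson r from 0.90 to 1.00 (median 0.95) on the log2(CPM + 0.1) scale. These r describe genes that were picked together and that share the depth and the tissue of each library. TTN and NEB did not follow them: r with the 8 genes was 0.28 to 0.37 for TTN and -0.10 to 0.08 for NEB.

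TTN (ENSG00000155657, chromosome 2, 178525989 to 178830802) showed no such rise. It stood at 2.63 to 5.43 CPM in cells, 2.58 to 5.15 CPM at day 30 and 4.02 to 10.3 CPM in treated tumours. The highest value came from WT DMSO replicate 2, the library with the highest fast myosins, and the next 3 WT DMSO libraries were at 5.35, 4.17 and 4.41 CPM. Per kb of exon TTN had a mean of 0.0397 CPM in tumours, the lowest of the 10 members. TTN-AS1, an antisense gene over TTN, had a mean of 2.18 CPM in cells and 1.76 CPM in tumours, and without a stated strand setting their reads cannot be told apart.

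NEB (ENSG00000183091, chromosome 2, 151485336 to 151734487) was high in every tumour library. In culture it was at 7.5, 7.62 and 8.14 CPM in WT, 0.599, 0.513 and 0.651 CPM in het1, 0.429, 1.11 and 0.797 CPM in het2, and 0.795, 1.03 and 0.981 CPM in homo. The WT libraries lay above those of the 3 edited lines with no overlap.

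At day 30 NEB was at 63.4, 47.3, 46.3 and 41.3 CPM in WT replicates 0, 1, 2 and 4, and at 27.5, 23.9, 61.4 and 36.0 CPM in het1 replicates 1 to 4. In het2 replicates 0, 1, 3 and 4 it was at 31.9, 31.2, 25.3 and 19.7 CPM, and in homo replicates 0, 1, 4 and 5 at 29.0, 37.6, 43.8 and 36.8 CPM. WT replicate 0, which had 0 MYH1 counts, held the highest NEB of the 16 libraries.

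Under DMSO NEB was at 28.0, 39.6, 53.9 and 38.8 CPM in WT replicates 2, 3, 7 and 8, and at 61.5, 69.8, 46.1 and 90.2 CPM in het1 replicates 2 to 5. Under SAHA it was at 43.2, 50.1, 18.4 and 22.3 CPM in WT replicates 3, 4, 6 and 8, and at 22.4, 17.8, 16.3 and 16.3 CPM in het1 replicates 1, 2, 3 and 6. In het1 the 4 SAHA libraries lay below the 4 DMSO libraries with no overlap, with a log2 fold change of -1.91 (SE 0.33), while in WT the groups overlapped (-0.25, SE 0.32). RIF1, which lies over NEB on the opposite strand, had a mean of 271 CPM in cells and 171 CPM in tumours, and its part in the NEB counts was not tested.

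**Figure D3:**
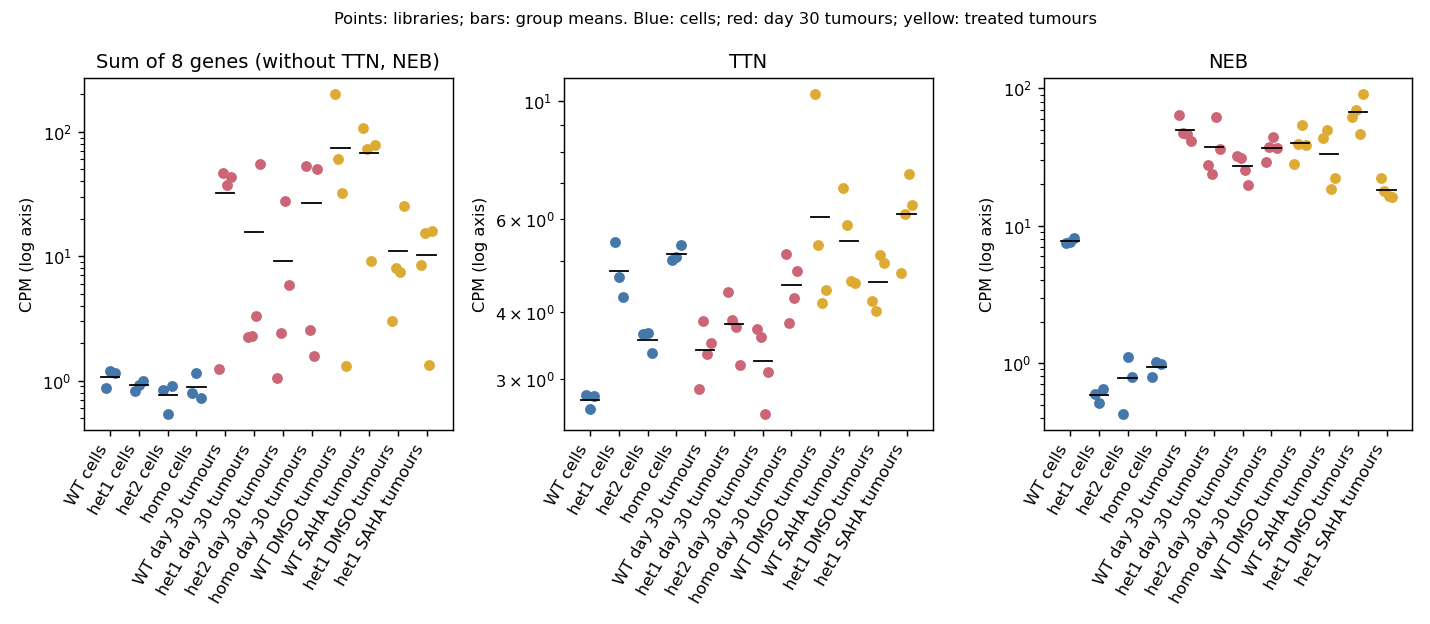
CPM (log axis) per library (points) and group mean (bars) for the sum of the 8 muscle genes other than TTN and NEB, for TTN and for NEB, in the 12 groups. The sum spreads from 1.04 to 200.03 CPM over the tumour libraries, TTN stays between 2.58 and 10.3 CPM, and NEB lies between 16.3 and 90.2 CPM in tumours.

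A further 6 lists of muscle genes, 71 genes in all with the members left out, were tested across all genes with edgeR's quasi-likelihood test, with calls at a Benjamini-Hochberg adjusted p under 0.05. Between day 30 tumours and cells, 42 of the 49 list genes tested were called (34 higher and 8 lower in tumours, median log2 fold change 1.81), where 79.5% of all 24227 genes tested were called and the median was 0.06. Called higher were 10 of 10 calcium handling genes, 5 of 7 thick filament genes, 7 of 9 thin filament genes, 5 of 10 Z disc genes, 4 of 8 metabolic genes and 3 of 5 regulators, where 43% of all genes were called higher. The filter on low counts passed 30 list genes and 21704 of all genes in the cells alone. Genes that passed it only through the tumours could hardly be called lower there. The shares called higher and the median fold changes are thus partly set by the filter. The called share of the list genes, 85.7%, in either direction is near that of all genes.

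Among the rises, the calcium release channel RYR1 went from 3.34 ± 0.61 CPM (SD, n = 12) to 13.7 ± 4.50 (n = 16; log2 fold change 2.08, SE 0.05, edgeR adjusted p = 1.1e-25) and NRAP, a protein of the fibre ends, from 0.0125 ± 0.01 to 0.391 ± 0.36 (5.21, SE 0.47, adjusted p = 2.08e-11). The adenylosuccinate synthase ADSSL1 and the M band protein MYOM3 also rose, by 2.53 and 3.39 on the log2 scale. Among the falls, MYPN, a Z disc protein, went from 16.8 ± 21.5 to 0.097 ± 0.07 CPM (-6.44, SE 0.15, adjusted p = 4.65e-23), and TNNT1, the slow troponin T, from 73.2 ± 23.6 to 46.6 ± 39.8 CPM (-1.05). The fall of TNNT1 is one over the 4 lines together, with overlapping libraries: in het1 it was at 83.4 to 86.2 CPM in cells and at 100.4 to 119 CPM in day 30 tumours. The libraries of MYOM3 overlapped too. Several genes of these lists were thus present in cultured A549, among them TPM2 at 217 to 364 CPM and ENO3 at 16.7 to 114 CPM.

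Among the members, log2 fold changes in that fit were 0.01 for TTN (-0.02 to 0.04 over the alternatives), 2.91 for ACTA1, 4.87 for NEB and 6.49 for DES. For the fast myosins, at or near 0 counts in culture, the fitted value depends on the prior count and is not given. The libraries of the 2 conditions overlapped for 8 of the 10 members, the exceptions being NEB and DES. The share of all genes without overlap was not computed, so this count only describes the members.

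Which other genes varied with the members was asked over the 32 tumour libraries, by the Pearson r of each gene's log2(CPM + 0.1) with the mean over the 10 members. With the members left out, 34 of 22068 genes with a mean of at least 0.1 CPM there had r over 0.7. The 15 nearest had r from 0.91 to 0.99. Of these, 11 were in the muscle lists, 2 (MYH6 and ACTC1) in the cardiac list, and 2 (MYH13 and ACTG1P12) in none. The r values share the library and its depth, and 13 of the 15 remained with a pseudocount of 1.

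MYH13, the extraocular myosin, lies on chromosome 17 with MYH8 between it and MYH4, and had r 0.99 (rho 0.99). Its r was also 0.99 without the 2 libraries farthest from the median, WT SAHA replicate 3 and WT DMSO replicate 2. MYH13 reached 15.9 CPM, and MYH8, the perinatal myosin, had r 0.99 and reached 7.76 CPM. MYH13 and MYH8 coding sequences were 79.3% and 88.1% identical to that of MYH1, and ACTG1P12 is named as an actin pseudogene, so shared reads bear on these values. The fast isoform genes TNNI2 (troponin I, r 0.97), MYL1 (essential light chain, 0.97), TNNC2 (troponin C, 0.97), ACTN3 (alpha-actinin, 0.96), CASQ1 (calsequestrin, 0.96) and ATP2A1 (calcium pump SERCA1, 0.95) followed. ACTN2, MYBPC2, MYOZ1, MYH7 and ACTC1 closed the 15, with r from 0.95 to 0.91, and all 15 were highest in WT DMSO replicate 2.

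Genes that direct muscle formation were low. MYOD1 was at most 0.0397 CPM and MYF5 at most 0.0418 CPM in the 32 tumour libraries, and MYOG reached 0.243 CPM. MYF6 (r 0.87) had 0 counts in culture and at most 0.278 CPM in tumours. PAX7, the marker of muscle stem cells, did not follow the members (r 0.30): it was at 4.54 to 5.4 CPM in WT cells and at 3.91 to 5.38 CPM in WT day 30 tumours, and lower in the edited lines. The embryonic myosin MYH3 was present in culture at 1.42 to 3.73 CPM and reached 13.7 CPM in tumours (r 0.91).

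Markers of the other tissues that a tumour could hold were set beside the members. Of the 69 genes of the 6 muscle lists with counts in tumours, 27 had r over 0.7 with the members' mean and 18 had a negative r. This count set no minimum level, unlike the count over all genes above, so the 27 are not all among the genes counted there. Across the 32 tumours, r of a list's summed CPM with the members was -0.05 for fibroblast genes, -0.04 for endothelial, -0.12 for adipocyte, 0.16 for Schwann cell, 0.32 for smooth muscle, 0.39 for myeloid, 0.49 for A549 epithelial, 0.50 for keratinocyte and 0.51 for cardiac genes. For the muscle lists it was -0.29 (thin filament), -0.01 (metabolism), 0.49 (calcium handling), 0.54 (thick filament), 0.86 (regulators) and 0.88 (Z disc), so the sums do not set all muscle lists apart from the others. Of the 10 cardiac genes 3 had r over 0.7 (MYH6, ACTC1 and MYL4), and of the 67 genes of the other 8 lists 0 did. Fibroblast genes summed to 106 to 519 CPM in tumours and 6.75 to 73.8 CPM in cells, and endothelial genes to 1.21 to 8.98 and 0.404 to 2.34 CPM. Whether host muscle next to the graft or the tumour cells gave the muscle counts was not tested, and what was done with host reads is not stated in the sources used here.

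**Figure D4:**
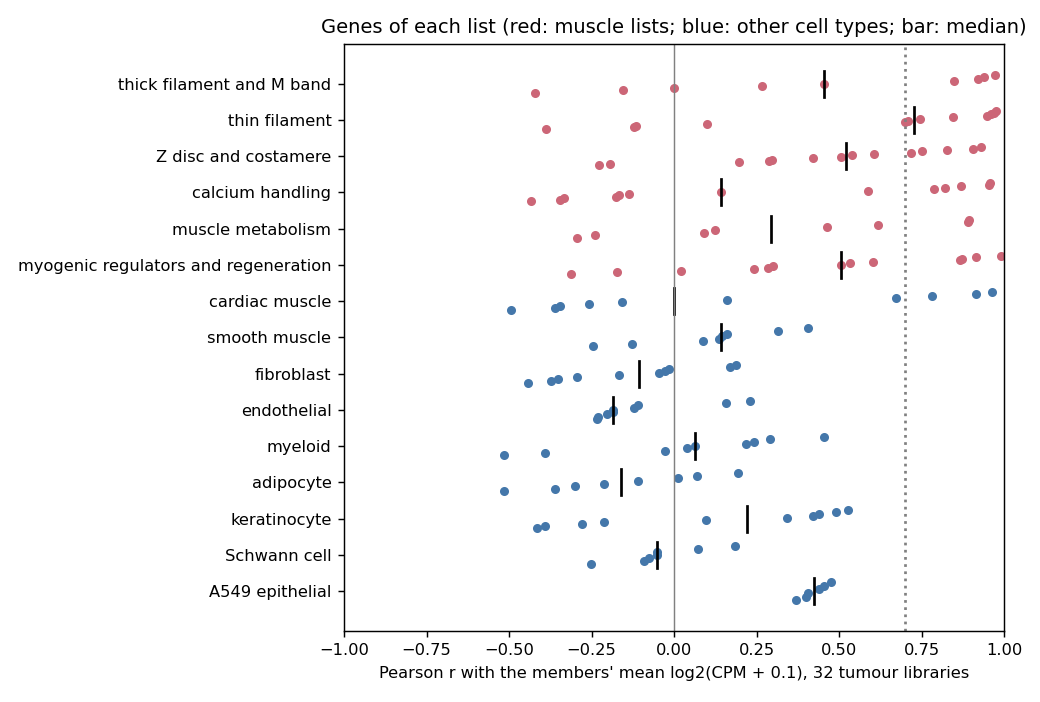
Pearson r of each list gene (points) with the members' mean over 32 tumour libraries, by list, with the median as a bar and a dotted line at 0.7. Points beyond 0.7 lie in the 6 muscle lists and in the cardiac list.

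The question of whether the edited lines differed from WT was asked for the 71 list genes within each table. At day 30 the members' values against WT had large errors. MYH1 had log2 fold changes of -1.53 (SE 1.73) in het1, -2.36 (SE 1.81) in het2 and -0.26 (SE 1.66) in homo, and ACTA1 had -0.50 (SE 1.29), -1.44 (SE 1.34) and -0.39 (SE 1.30). Without het1 replicate 4, the library with the high levels, the het1 values were -5.05 for MYH1 and -2.80 for ACTA1. Over the alternatives the homo values ran from -1.92 to 0.17 for MYH1 and from -1.19 to 0.0011 for ACTA1, so their sign is not fixed. Of the list genes 48 were tested. In het1, 9 were called higher and 8 lower, where 51.5% of all genes were called. In het2, 11 were higher and 7 lower (49.2% of all genes), and in homo 9 were higher and 8 lower (54.8%).

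Several of the list genes called at day 30 were also present in cultured A549. TNNT1 was at 7.26 ± 1.08 CPM (SD, n = 4) in WT, 109 ± 10.4 in het1 (log2 fold change 3.90, SE 0.11, edgeR adjusted p = 2.2e-15), 28.3 ± 3.91 in het2 (1.95) and 41.5 ± 1.71 in homo (2.50). MYOM3 was at 39.6 ± 2.48 CPM in WT, 1.47 ± 0.32 in het1 (-4.78, SE 0.23, adjusted p = 7.43e-11), 3.75 ± 1.39 in het2 (-3.40) and 3.86 ± 0.69 in homo (-3.37). PAX7 fell as well, by 4.14 in het1, 2.70 in het2 and 5.75 in homo on the log2 scale, and RYR1 rose by 1.26 in het1, 1.02 in het2 and 0.59 in homo. In culture RYR1 had the opposite direction where called, at -0.56 in het2 and -0.31 in homo. For TNNT1, MYOM3 and PAX7 the libraries of WT and of each edited line did not overlap, and their r with the members was -0.39, 0.45 and 0.30.

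In culture 30 of the 71 list genes and 3 of the 10 members (ACTA1, NEB and TTN) passed the filter on low counts. Against WT, 14 list genes were called higher and 6 lower in het1 (62.8% of all genes called), 18 and 7 in het2 (68.5%), and 21 and 6 in homo (70.5%). Of all genes, 6949 were called higher and 6691 lower in het1, 7625 and 7233 in het2, and 7685 and 7608 in homo. Genes that passed the filter only through edited lines could hardly be called lower there. The split is thus partly set by the filter. With only genes of a mean of at least 1 CPM it was 7 and 5, 9 and 5, and 10 and 5. MYPN rose from 3.43 ± 0.34 CPM (SD, n = 3) to 52.4 ± 1.62 in het1 (log2 fold change 3.77), and TNNT1 rose from 37.4 ± 1.56 to 84.4 ± 1.56 CPM in het1, 72.5 ± 0.74 in het2 and 98.3 ± 3.48 in homo. PAX7, at 5.05 ± 0.45 CPM in WT, fell to 0.042 ± 0.05 in het1, 0.080 ± 0.01 in het2 and 0.030 ± 0.01 in homo, and MYOM3 from 7.35 ± 0.32 to 0.181 ± 0.02, 0.164 ± 0.09 and 0.419 ± 0.15 CPM.

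Among treated tumours the 8 genes had lower means in het1 than in WT. Their summed CPM under DMSO was 200.03, 60.7, 32.0 and 1.31 in WT replicates 2, 3, 7 and 8, and 3.04, 8.09, 7.45 and 25.4 in het1 replicates 2 to 5. Under SAHA it was 108, 72.4, 9.16 and 79.1 in WT replicates 3, 4, 6 and 8, and 8.42, 15.5, 1.34 and 16.0 in het1 replicates 1, 2, 3 and 6. The groups overlapped in both treatments, through WT DMSO replicate 8 and WT SAHA replicate 6. The log2 fold changes of these genes ran from -3.41 (CKM, SE 1.23) to -2.11 (MYLPF, SE 0.76) under DMSO and from -2.94 (MYH2, SE 1.30) to -2.0 (MYLPF, SE 0.74) under SAHA. Without WT DMSO replicate 2 the range under DMSO was -1.81 (CKM) to -1.28 (MYLPF), and the WT DMSO mean of the sum was 31.3 CPM in place of 73.5.

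Of 49 list genes tested between het1 and WT under DMSO, 8 were called higher and 23 lower, where 54% of all genes tested were called. Of all genes, 6158 were called higher and 6047 lower. List genes that passed the filter only through the WT libraries could hardly be called higher in het1, so the split is partly set by the filter. With only genes of a mean of at least 1 CPM it was 6 higher and 11 lower. TNNT1 rose to 105 ± 6.04 CPM from 10.1 ± 3.12 (SD, n = 4; log2 fold change 3.34, SE 0.15, edgeR adjusted p = 8.24e-11), and RYR1, MYOM2 and HRC rose too. MYOM3 fell from 52.7 ± 7.57 to 3.36 ± 1.09 CPM (-4.01), PAX7 by 3.91, SGCA by 3.49 and ADSSL1 by 0.77 on the log2 scale. The falls also took in genes with high r to the members, such as MYH7 (-4.13, adjusted p = 0.0193), TNNI2 (-2.91, 0.0347) and ACTN3 (-2.34, 0.0392). Without WT DMSO replicate 2 the calls were 9 higher and 8 lower. They were 17, 18 and 19 in all without het1 DMSO replicate 2, 3 or 4, and 16 with the replicate number as a block.

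Under SAHA, 8 list genes were higher and 16 lower in het1 than in WT, where 58.9% of all genes were called. Of all genes, 6752 were called higher and 6543 lower, and the limit set by the filter holds here too. With only genes of a mean of at least 1 CPM, 5 list genes were higher and 7 lower. TNNT1 rose by 3.68, MYOM2 by 1.13, RYR1 by 1.43 and ENO3 by 0.85 on the log2 scale, and MYOM3 fell by 4.12, PAX7 by 3.51, SGCA by 2.04 and ADSSL1 by 0.94. Of the 9 lists of other cell types, 5 had higher sums in WT than in het1 without overlap in both treatments, the direction of the members' means. The same 5 were also higher in WT than in het1 without overlap in cultured cells. There myeloid genes summed to 6.53 to 6.72 against 3.89 to 4.28 CPM, and smooth muscle genes to 44.4 to 48.2 against 34.8 to 37.9. Keratinocyte genes summed to 42.9 to 45.5 against 32.3 to 37.0 CPM, endothelial to 1.30 to 2.34 against 0.443 to 0.636, and A549 epithelial to 5909 to 6206 against 2629 to 2785. Myeloid genes summed to 40.6 to 72.7 CPM in WT DMSO and 13.5 to 18.2 CPM in het1 DMSO tumours, and to 35.4 to 46.5 and 14.0 to 18.3 CPM under SAHA. Smooth muscle genes summed to 57.6 to 87.6 CPM in WT DMSO and 27.4 to 38.7 CPM in het1 DMSO tumours (SAHA 63.5 to 92.7 and 35.5 to 44.4), and keratinocyte genes to 63.7 to 103 and 38.4 to 48.7 CPM (SAHA 69.5 to 77.1 and 40.2 to 45.6). Endothelial genes summed to 3.07 to 3.79 and 1.21 to 1.73 CPM (SAHA 2.74 to 5.45 and 1.86 to 2.47), and A549 epithelial genes to 4939 to 6582 and 3609.9 to 4401 CPM (SAHA 5316 to 6488 and 3820.5 to 4293). Fibroblast genes, which overlapped under SAHA, summed to 239 to 350 CPM in WT DMSO and 118 to 139.7 CPM in het1 DMSO tumours, and to 175 to 519 and 168 to 253 CPM under SAHA. Their part in the difference was not tested.

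**Figure D5:**
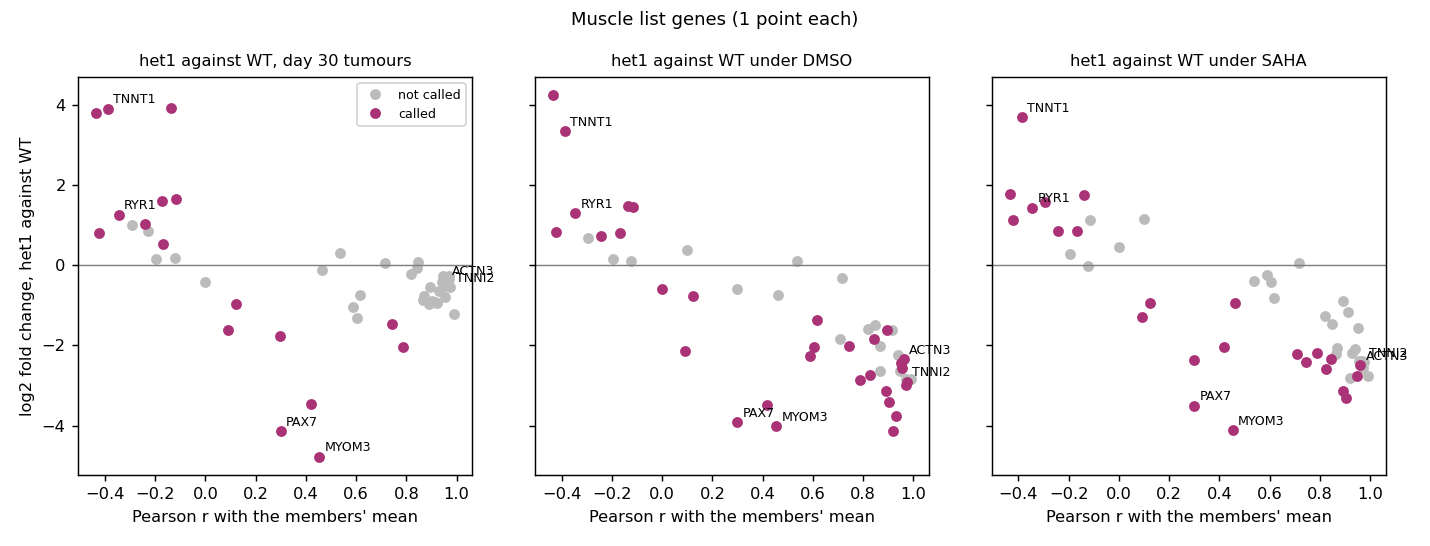
log2 fold change of muscle list genes (points) in het1 against WT, plotted against Pearson r with the members' mean over 32 tumour libraries, at day 30, under DMSO and under SAHA, with called genes in purple. All 25 genes with r over 0.7 lie below 0 under DMSO and 24 of 25 do under SAHA, while TNNT1 and RYR1, at negative r, lie above 0 in the 3 panels; the split at 0.7 was chosen after the values were seen. The r and the fold changes come from the same libraries.

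Few list genes were called between SAHA and DMSO. In WT, edgeR called 0 of 49 list genes and 0% of all genes, with 3 list genes at an unadjusted p under 0.05, and DESeq2 called 0 list genes (6 unadjusted) and 147 genes in all. In het1, 3 list genes were called, where 16.8% of all genes were. TCAP, a titin-binding Z disc protein, rose from 0.651 ± 0.07 to 1.06 ± 0.20 CPM (SD, n = 4; log2 fold change 0.67, edgeR adjusted p = 0.0247), and MYOM1 rose from 0.693 ± 0.12 to 1.13 ± 0.16 CPM (0.67, 0.0409). ADSSL1 fell from 27.2 ± 1.75 to 22.7 ± 0.58 CPM (-0.29, 0.00249). The count was 1 without het1 DMSO replicate 2 or het1 SAHA replicate 2 or 3, 5 without het1 SAHA replicate 6, and 0 with the replicate number as a block. For the 8 genes, the fold changes with SAHA were -0.37 (TNNT3, SE 1.10) to 0.32 (DES, SE 0.82) in WT and -0.27 (MYH2, SE 1.35) to 0.82 (CKM, SE 1.35) in het1, each smaller than its SE.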

How the data were processed

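RNA-seq was made from polyA RNA, extracted with the QIAGEN RNeasy Plus Mini kit and prepared with the KAPA stranded mRNA kit, per the labels' protocols. The authors deposited raw read counts per Ensembl gene in 3 tables, and bcl2fastq, HISAT2, HTSeq and the hg38 build are named in the submitters' processing notes, while versions, the annotation release, the strand setting and the treatment of host reads are not stated in these sources. All 58721 gene IDs matched GENCODE release 29, which gave the symbols, and no column was left without a sample. Library totals ran from 61168373 to 99593214 counts, which limits precision for genes with few counts, and intervals cover counting error only.

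CPM was computed from the library totals. Genes passing edgeR's filterByExpr were fitted per table, and in 1 joint fit for day 30 tumours against cells, with TMM scaling and edgeR's quasi-likelihood test in edgeR 4.0.16 (limma 3.58.1, R 4.3.3), and calls used a Benjamini-Hochberg adjusted p under 0.05 over all genes tested. Each SE of a log2 fold change was the size of that change divided by the square root of the test's F statistic. It is thus not independent of the test, and for the members it is given as a description. The scripts were tested on simulated data. Members and gene lists were chosen with earlier results of these data known. Genes were named by rule: the members, up to 4 muscle list genes per comparison and direction with the smallest p, the genes of each list with the highest tumour level, the muscle regulators, the 15 genes most like the members and EP300. MYL4, MYH7, TNNI2 and ACTN3 in the comparison under DMSO were picked after their values were seen. So were PGAM2, COX6A2, PVALB and MYL2, named as nearly missing in tumours. Alternatives were RLE scaling, DESeq2 1.42.0, other filters, leaving out each library, another pseudocount and the replicate number as a block. Of 60 pairs of libraries within groups 0 were identical.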

Additional observations from a re-analysis of the deposited data

Results flagged for a closer look

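In groups of 4 tumour libraries, a library was picked out where its gap to the nearest other value, divided by the range of the group, exceeded Dixon's critical value of 0.829. Of 88 checks 12 did. The rate of about 1 group in 20 by chance holds for independent, normally distributed values. These CPM were skewed and the checks share libraries, so that rate does not apply and the 12 are a description. In het1 day 30 tumours, replicate 4 stood apart with ACTA1 at 18.6 CPM (others 1.01 to 1.32), CKM at 2.09 (0.0264 to 0.0731), MYH1 at 9.01 (0.175 to 0.262) and MYH2 at 5.96 (0.102 to 0.327). The same library held MYH4 at 6.33 CPM (others 0.117 to 0.157), TNNT3 at 3.96 (0.0925 to 0.105), MYLPF at 0.628 (0.0131 to 0.0585) and DES at 8.56 (0.585 to 1.02), and the sum of the 8 genes was 55.1 CPM (2.22 to 3.27). In het2 day 30 tumours, replicate 3 stood apart with MYH1 at 4.57 CPM (0.0111 to 0.671), MYH2 at 2.91 (0 to 0.393) and DES at 3.47 (0.611 to 1.00). These genes vary together, so the 12 are not independent.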

How the results depend on the processing

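With only genes of a mean of at least 1 CPM, 13 to 20 muscle list genes were left to test, and the calls fell to 12, 14 and 15 in het1, het2 and homo cells, 9, 10 and 11 at day 30, 17 under DMSO, 12 under SAHA and 12 between day 30 tumours and cells. With no filter, 1 list gene was called between SAHA and DMSO in het1. With the replicate number as a block, 16 list genes were called under DMSO and 0 between SAHA and DMSO in het1, and the other counts stayed within 1.5 times. Residual correlations of same-numbered libraries were -0.12 to 0.09 in cells (median -0.01, 18 pairs) and -0.27 to 0.22 at day 30 (-0.02, 17 pairs). In treated tumours they were -0.20 to 0.20 (-0.03, 12 pairs). So few pairs cannot exclude a batch shared by number, and what the numbers stand for is not stated. Leaving out each library gave 18 to 22, 23 to 26 and 25 to 27 calls in het1, het2 and homo cells, 14 to 18, 15 to 20 and 17 to 19 at day 30, 17 to 40 under DMSO, 18 to 35 under SAHA, 0 to 0 for SAHA in WT, 1 to 5 for SAHA in het1 and 39 to 43 between day 30 tumours and cells. Of the members' log2 fold changes, 1920 moved by less than the replicate spread and 17 by more, and the sign changed under at least 1 alternative for 16 values with SAHA and 9 others: 6 in homo at day 30 (ACTA1, CKM, DES, MYH1, MYH4, TNNT3), DES in het1 and TTN in het2 at day 30, and TTN between day 30 tumours and cells. The replicate spread reached 3.65 on the log2 scale (MYH1, homo against WT at day 30). A move of less than the spread can thus be large, and the 1920 do not show that the values are stable. Where no construction shows why a result moved, the cause was not tested.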

Other observations

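WT DMSO replicate 2, the library with the highest fast myosins, was also the highest of the 32 tumour libraries in LYZ, a lysozyme of myeloid cells (64.5 CPM), in KRT15, a keratin of basal epithelium (29.8 CPM), and in MBP, a myelin protein (65.4 CPM). Some genes of mature fibres were nearly missing in tumours: PGAM2 and COX6A2 had 0 counts in all 32 libraries, PVALB reached 0.152 CPM and MYL2 0.0146 CPM. These genes were picked after their values were seen. Of the 49 list genes tested between day 30 tumours and cells, 34 were called higher in tumours and 8 lower. Of all genes 43% were called higher, and the split of the list genes is partly set by the filter. Those called higher included MYL1 (log2 fold change 7.05), AMPD1 (6.29), CASQ1 (3.37) and PYGM (1.65).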
